A study of Mus musculus with 45 samples.

Results

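Tau P301L alone was compared with wild type in the hippocampus of 24 of the 45 mice sequenced, and the 24 mice were chosen by their labelled genotype and not by any measured value. The 12 AwT+ mice carried the human Tau P301L transgene without APP/PS1, and the 12 AwTw mice were wild-type littermates carrying neither transgene. All were C57Bl/6J females that entered the dietary intervention at 7 months of age and were killed at 13 months, and in each genotype 6 mice were on standard diet (STD) and 6 on typical Western diet (TWD), which is rich in fat, cholesterol and sucrose. The remaining 21 mice carried the APP/PS1 transgenes (A+) driven by the mouse prion protein promoter, 11 without tau (A+Tw) and 10 with it (A+T+), and they are used here to look at the same tau transgene in animals that took no part in the main comparison.

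Tau, the product of the gene Mapt, binds and stabilises axonal microtubules. P301L is a mutation of familial frontotemporal dementia that weakens this binding and favours aggregation of tau into filaments. In AwT+ mice the mutant protein is expressed under the CaMKII promoter, which is active mainly in excitatory forebrain neurons, so glia and interneurons are not expected to express the transgene themselves. Disease-associated microglia, reactive astrocytes, chaperones, the unfolded protein response and loss of synaptic transcripts are the responses usually looked for in tauopathy, and gene lists for each were examined.

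Among the 24 mice, the 3 of lowest median correlation with the other mice had 0.938, 0.957 and 0.963. The number 3 was fixed and not set by a gap. They were 2 AwTw and 1 AwT+ animals on TWD, all of batch 1, and the next lowest, an AwTw mouse on STD, had 0.965. No gene separated the 2 genotypes after correction for multiple testing. Of the 15897 genes measured, 0 passed an adjusted p of 0.05 between AwT+ and AwTw mice (0% of the genes tested, limma with diet and batch as covariates), and the smallest adjusted p was 0.9998. Without the 3 mice of lowest correlation 0 genes passed as well (432 at an unadjusted p under 0.05). At an unadjusted p under 0.05 there were 329 genes (2.07%), with 188 higher in AwT+ mice (1.18%) and 141 lower (0.887%), and after quantile normalization of the values that division turned round to 146 higher and 203 lower. The values of the 12 AwT+ and 12 AwTw mice overlapped for every gene, so the count of genes without overlap was 0 (0%). The values are on a log2-like scale, on which a difference of 1 is close to a doubling for well-expressed genes and less than the true change for weakly expressed ones. The median standard error of a difference was 0.104 on this scale. The 95% interval lay within ±0.5 for 14303 genes (90%) and within ±1 for 15734 genes (99%), which sets the size of change that the 24 mice could still have missed.

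The mouse gene Mapt did not serve as a check of the transgene, since its row comes from alignment to mouse transcripts and human tau reads were not analysed here. Whether reads of the human transgene count towards that row was not tested. Mapt ranged from 12.59 to 13.40 in AwT+ mice, with a median of 13.01, and from 12.69 to 13.16 in AwTw mice, with a median of 12.91. The 2 groups overlapped, with a log2 difference of 0.07 ± 0.08 (SE, unadjusted p = 0.344). With the level of choroid plexus genes as a covariate the Mapt difference was 0.15 (unadjusted p = 0.0191). Camk2a encodes the alpha subunit of CaMKII, and which CaMKII gene gave the transgene its promoter is not given in the sources used here. It ranged from 15.38 to 16.21 in AwT+ and from 15.65 to 16.42 in AwTw mice. Its difference was -0.09 ± 0.09 (SE, unadjusted p = 0.356), and the sign turned to 0.04 after quantile normalization and to 0.0017 with the choroid plexus covariate. App, the amyloid precursor, differed by -0.02 and Prnp, the prion protein gene, by -0.05, both well within the spread between mice, and both signs turned after quantile normalization (0.04 for App and 0.0036 for Prnp).

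**Figure D1:**
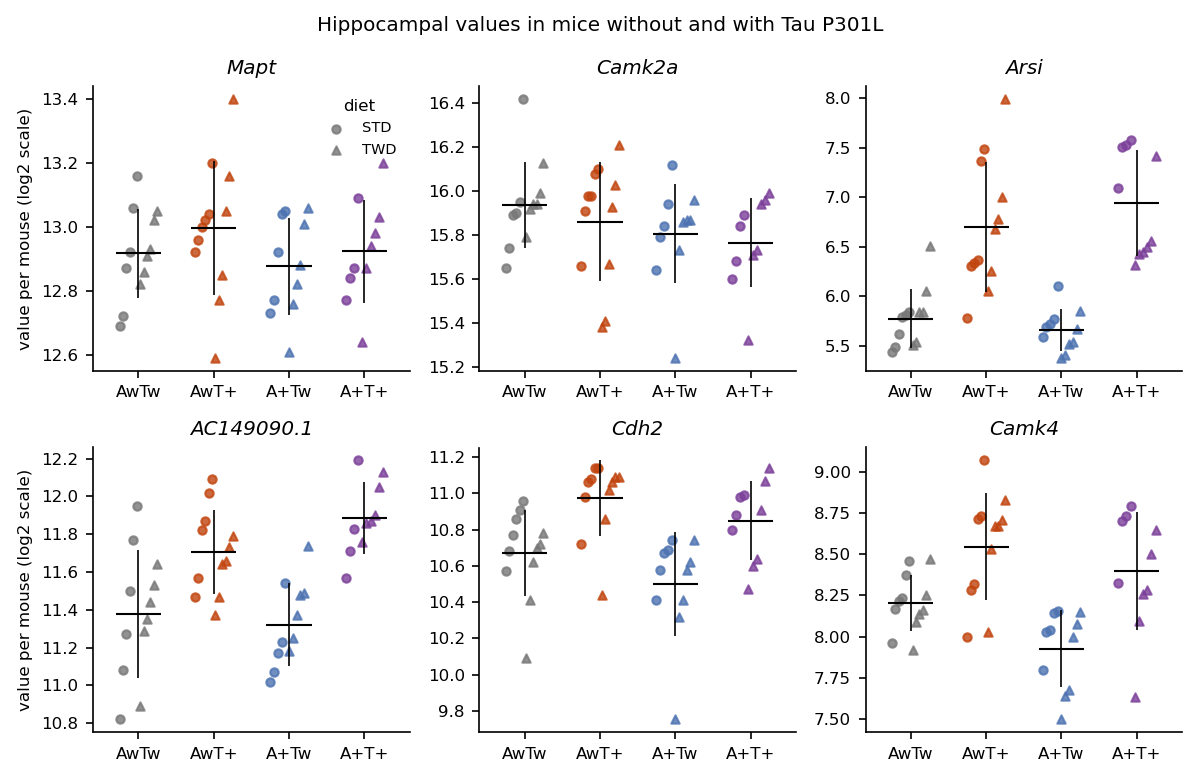
Values of 6 genes in each of the 45 mice on the log2-like scale (y axis) by genotype (x axis), with circles for STD, triangles for TWD, a horizontal bar for the mean and a vertical bar for the SD. Mapt and Camk2a overlap between mice with and without tau, whereas Arsi is higher in 11 of 12 AwT+ mice than the AwTw median and does not overlap between A+T+ and A+Tw.

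Arsi, which encodes a member of the arylsulfatase family, had the smallest p of all genes. Its value was 5.78 in the lowest, 6.52 in the median and 7.995 in the highest AwT+ mouse, against 5.44, 5.80 and 6.51 in AwTw mice. Of the 12 AwT+ mice, 6 lay above every AwTw mouse and 11 above the AwTw median, and 5 AwTw mice lay below every AwT+ mouse. The mean was 6.70 ± 0.65 (SD, n = 12) in AwT+ and 5.77 ± 0.30 (SD, n = 12) in AwTw mice. The log2 difference was 0.93 ± 0.20 (SE, 95% interval 0.52 to 1.34, unadjusted p = 9.81e-05, adjusted p = 0.9998). Arsi differed to a like extent on both diets, by 0.95 on STD (unadjusted p = 0.00328) and by 0.91 on TWD (unadjusted p = 0.00423), and the difference between the diets was -0.04 (unadjusted p = 0.927). The Arsi difference was 1.20 in batch 0 alone, 0.79 in batch 1 alone and 1.02 with the choroid plexus covariate. It was 1.00 without the 3 mice of lowest correlation and between 0.82 and 1.01 with each mouse left out in turn.

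Arsi also had the smallest p in the mice that carried tau on top of APP/PS1. Arsi ranged from 6.32 to 7.58 in the 10 A+T+ mice, with a median of 6.83, and from 5.38 to 6.11 in the 11 A+Tw mice, with a median of 5.68. All 10 A+T+ mice lay above all 11 A+Tw mice, and Arsi was the 1 gene of 15897 without overlap in that comparison (0.00629%). The log2 difference was 1.30 ± 0.20 (SE, limma, adjusted p = 0.000723). Within A+T+ mice the 4 animals on STD lay between 7.09 and 7.58, and the 6 on TWD between 6.32 and 7.42. The Arsi difference between mice with and without the tau transgene was larger by 0.37 in A+ mice than in mice without APP/PS1. That excess did not pass the test (limma, unadjusted p = 0.179, adjusted p = 0.9999).

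On the mouse genome (GRCm38, GENCODE M21), Arsi lies on the plus strand of chromosome 18, from 60911780 to 60918561. It ends 7.1 kb before the start of Camk2a on the same strand. Whether reads of the transgene construct count towards Arsi was not tested. Camk2a, a gene of the CaMKII family named in the transgene's promoter, itself was not different (above), and the other 23 genes of the table that start within 1 Mb of the Camk2a start were looked at after the values of Arsi had been seen. In AwT+ against AwTw mice 10 of these 23 were above 0, and their log2 differences ranged from -0.14 (Rps14) to 0.23 (Cd74). Of the 23, 0 had an unadjusted p under 0.05, beside 2.07% of all genes. In A+T+ against A+Tw mice 12 of the 23 were above 0, with a range from -0.28 (Rps2-ps10) to 0.22 (Slc26a2). Again 0 had an unadjusted p under 0.05, beside 3.55% of all genes. At these shares 23 genes are too few for a count of 0 to be read as a result. The genes next to the pair, Tcof1 and Slc6a7, differed by 0.02 and -0.02 in AwT+ mice and by 0.10 and 0.02 in A+T+ mice.

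**Figure D2:**
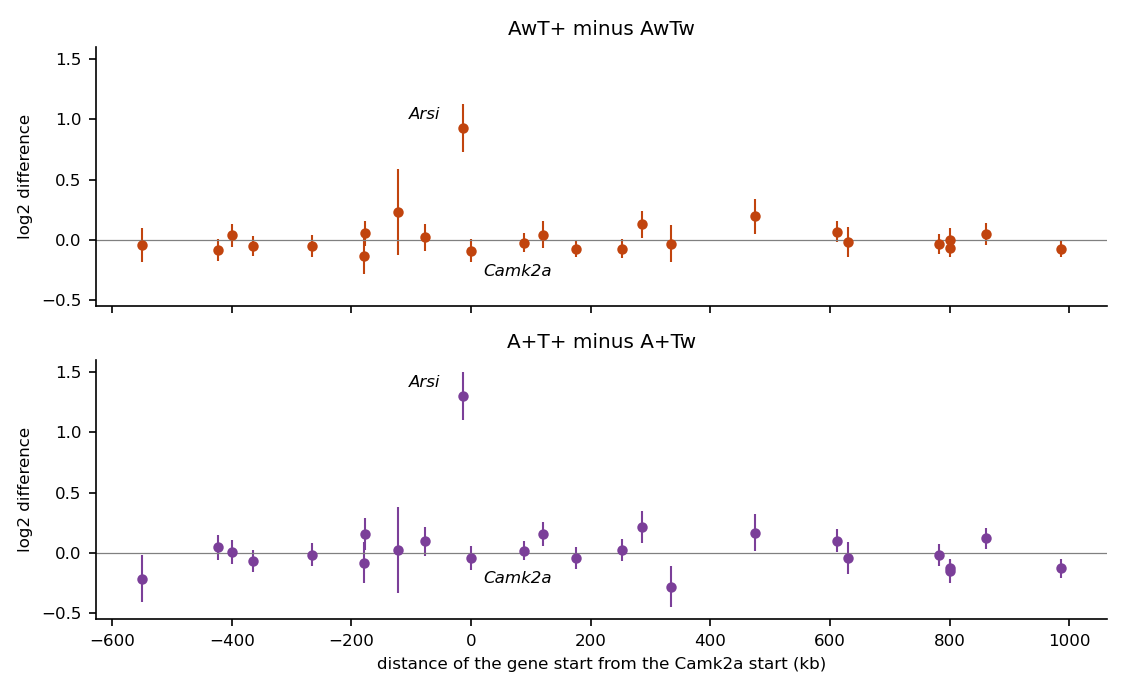
Log2 difference with its standard error (y axis) for the 25 genes starting within 1000 kb of the Camk2a start, against the distance of their start in kb (x axis), in AwT+ against AwTw (upper) and A+T+ against A+Tw mice (lower). Arsi stands at 0.93 and 1.30, and the other 23 genes and Camk2a lie between -0.28 and 0.23.

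A+T+ mice held 1 more gene past the threshold, so that 2 of 15897 genes passed in A+T+ against A+Tw mice (0.0126%), and 565 had an unadjusted p under 0.05 (3.55%). That gene was AC149090.1, a protein-coding gene on an unplaced contig of the assembly, where whether reads are shared with a near-identical copy was not tested. AC149090.1 ranged from 11.57 to 12.19 in A+T+ and from 11.02 to 11.74 in A+Tw mice, and its log2 difference was 0.57 (limma, adjusted p = 0.0443). Its call was lost without the mean trend, within each batch alone and in 30 of the 45 fits that left out 1 mouse each. Those 45 include fits without an AwT+ or AwTw mouse, which enters this comparison only through the shared terms of the fit. The call was lost in fits of both kinds. It was kept without the batch covariate (limma, adjusted p = 0.0476) and with weights on the mice (adjusted p = 0.0241). A fit of only the A+ mice, not planned at the outset, kept it as well (adjusted p = 0.0080). In AwT+ mice it ranged from 11.37 to 12.09, with a median of 11.69, against 10.82 to 11.95 and a median of 11.39 in AwTw mice. The groups overlapped, and the difference of 0.34 ± 0.11 (SE) had an unadjusted p of 0.00676 and an adjusted p of 0.9998.

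When mice with and without tau were compared over both backgrounds in all 45 mice, an alternative chosen after the data had been seen, the same 2 genes passed. Arsi was higher by 1.12 (limma, adjusted p = 2.78e-06) and AC149090.1 by 0.46 (adjusted p = 0.00294). The next genes missed the threshold. Camk4, a calcium/calmodulin-dependent kinase of neurons, was higher by 0.41 (adjusted p = 0.0568), and Cdh2, the synaptic adhesion molecule N-cadherin, by 0.33 (adjusted p = 0.0677). Both lie on chromosome 18, as Arsi does, and 4 of the 23 genes with an unadjusted p under 0.001 over both backgrounds lay there, against 2.74% of all genes (435 of 15897). These 4 include Arsi, Camk4 and Cdh2 themselves. Cdh2, from 16588877 to 16809246, is far from Arsi on the chromosome.

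Cdh2 was among the leading genes of AwT+ mice taken alone. It ranged from 10.44 to 11.14 in AwT+ mice, with a median of 11.06, and from 10.09 to 10.96 in AwTw mice, with a median of 10.71. Of the 12 AwT+ mice, 9 lay above every AwTw mouse, and the lowest AwT+ mouse lay below the AwTw median. The difference was 0.30 ± 0.09 (SE, unadjusted p = 0.00213, adjusted p = 0.9998), and in A+T+ against A+Tw mice it was 0.36 (unadjusted p = 0.000851). Camk4, named here after its values were seen, ranged from 8.00 to 9.07 in AwT+ mice with a median of 8.67, and from 7.92 to 8.47 in AwTw mice with a median of 8.19. Its difference was 0.34 ± 0.11 (SE, unadjusted p = 0.00422) in AwT+ and 0.48 (unadjusted p = 0.000264) in A+T+ mice. With Kirrel, a cell adhesion molecule of the immunoglobulin family that differed by 0.32 and 0.36, there were 5 genes with an unadjusted p under 0.01 in both backgrounds. They were 10.9% of the 46 such genes in AwT+ mice and 5% of the 100 in A+T+ mice. Those 46 and 100 are out of all 15897 genes tested.

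For none of the other leading higher genes did the difference between the 2 tau effects pass the test (limma, adjusted p = 0.9999). Slc39a14, a transporter of zinc and manganese, ranged from 8.78 to 9.43 in AwT+ mice (median 9.12) and from 8.54 to 9.19 in AwTw mice (median 8.77). All 12 AwT+ mice were above the AwTw median although the groups overlapped, and the difference was 0.30 ± 0.07 (SE, unadjusted p = 0.000461). In A+T+ mice it was 0.11 (unadjusted p = 0.263). Mks1, a protein of the ciliary transition zone, was higher by 0.40 in AwT+ and by 0.12 in A+T+ mice, and Epb41l5, a FERM-domain protein of cell polarity, by 0.39 and 0.11. Sntb1, a syntrophin of the dystrophin complex, was higher by 0.42 and 0.17, and Pik3c2b, a class II phosphoinositide 3-kinase, by 0.24 and 0.03. Fryl was higher by 0.27 and 0.02. Glb1l2 was higher by 0.40 and 0.16, and over the 24 mice it followed the level of the choroid plexus genes (Pearson r = 0.692 across mice, given as a description).

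Gm5641, a transcribed processed pseudogene, had the highest difference among the leading genes but not a stable one. It ranged from 8.58 to 10.53 in AwT+ mice (median 9.56) and from 5.77 to 9.16 in AwTw mice (median 8.46). Of the 12 AwT+ mice, 8 lay above every AwTw mouse, and the lowest AwTw mouse and the lowest A+T+ mouse both had 5.77. The log2 difference was 1.35 ± 0.31 (SE, unadjusted p = 0.000227), and it was 0.23 in batch 0 alone (unadjusted p = 0.27) and 2.04 in batch 1 alone. In A+T+ mice Gm5641 differed by -0.49 (unadjusted p = 0.177), and the difference between the 2 tau effects was -1.82 (unadjusted p = 0.000512, adjusted p = 0.9999), so it did not pass. As a pseudogene it can share reads with its parent gene, which was not tested.

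The leading lower genes included Cd6 and Trac. Cd6, a surface receptor of T cells, ranged from 4.97 to 5.49 in AwT+ mice (median 5.24) and from 5.15 to 5.92 in AwTw mice (median 5.62). All 12 AwT+ mice were below the AwTw median, 9 AwTw mice were above every AwT+ mouse, and the difference was -0.40 ± 0.09 (SE, unadjusted p = 0.000246). Trac, the constant region of the T cell receptor alpha chain, ranged from 5.25 to 5.81 (median 5.43) against 5.43 to 6.20 (median 5.76), with a difference of -0.31 ± 0.09 (SE, unadjusted p = 0.00153) that was -0.20 in batch 0 alone (unadjusted p = 0.16). Both genes are near the low end of the scale, where the transformation compresses differences, and in bulk tissue fewer cells of a type cannot be told apart from less RNA per cell. In A+T+ against A+Tw mice Cd6 differed by 0.05 (unadjusted p = 0.602) and Trac by 0.02 (unadjusted p = 0.803).

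Bdnf, the activity-regulated neurotrophin of hippocampal neurons, ranged from 8.30 to 8.91 in AwT+ mice (median 8.68) and from 8.69 to 9.20 in AwTw mice (median 8.87). Of the 12 AwT+ mice, 6 were below every AwTw mouse and 11 below the AwTw median, and the difference was -0.24 ± 0.07 (SE, unadjusted p = 0.00254, adjusted p = 0.9998). It was -0.19 on STD, -0.29 on TWD, -0.12 within batch 0 (unadjusted p = 0.239) and -0.30 within batch 1, and A+T+ mice differed from A+Tw mice by -0.06 (unadjusted p = 0.59). Dynlrb1, a light chain of the motor dynein, was lower by 0.22 in AwT+ mice and by 0.18 in A+T+ mice (unadjusted p = 0.028), and it differed by -0.39 within batch 0 and by -0.11 within batch 1 (unadjusted p = 0.0865). Mcub, a subunit that restrains the mitochondrial calcium uniporter, differed by -0.30 in AwT+ and -0.10 in A+T+ mice, and Dnajc24, a cofactor of diphthamide synthesis, by -0.28 and 0.02. The Dnajc24 difference was -0.11 within batch 0 (unadjusted p = 0.313) and -0.39 within batch 1. Fli1, an ETS factor of endothelial and blood lineages, differed by -0.35 and 0.09. Sap30bp differed by -0.26 and -0.10, and the genes Gm42417 and Gm10548 by -0.74 and -0.40 in AwT+ and by -0.23 and -0.24 in A+T+ mice.

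As a list, 15 of the 20 leading genes had the same sign in A+T+ against A+Tw mice, 9 of the 10 higher and 6 of the 10 lower genes, and 3 of the 20 (Arsi, Cdh2 and Dynlrb1) had an unadjusted p under 0.05 there. Over all genes 61.9% had the same sign in both backgrounds, which is the level to read that count against. For the 329 genes with an unadjusted p under 0.05 in AwT+ mice the share was 74.5% (245 genes). Of the 329, 40 had an unadjusted p under 0.05 with the same sign in A+T+ mice, 12.2% of the AwT+ list and 7.08% of the 565 genes of the A+T+ list. The log2 differences of the 2 comparisons, which share no mouse, correlated over the 15897 genes with a Pearson r of 0.362 and a Spearman rho of 0.304. Genes are not independent replicates, and the median of the choroid plexus genes was above 0 in both comparisons (0.80 and 0.95), whose part in the correlation was not tested. A test of the difference between the 2 tau effects passed for 0 genes (0%, 205 at an unadjusted p under 0.05).

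**Figure D3:**
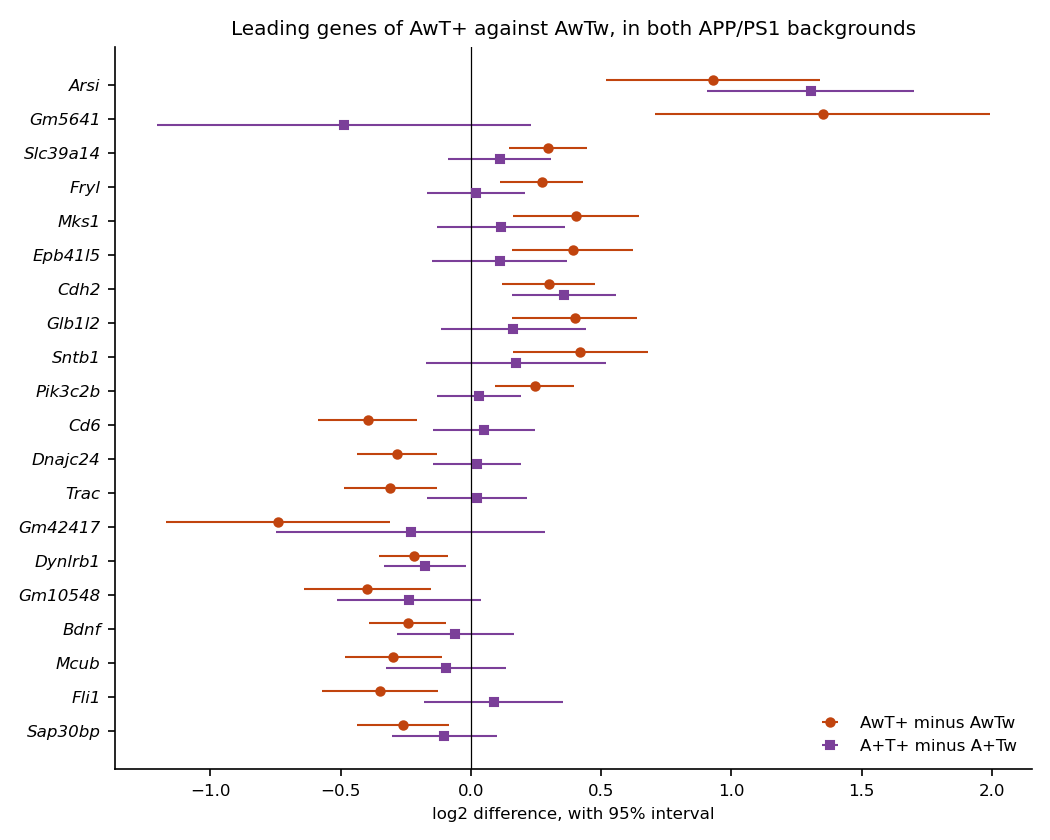
Log2 difference with its 95% interval (x axis) for the 20 leading genes of AwT+ against AwTw mice (y axis, 10 higher and 10 lower), with circles for AwT+ minus AwTw and squares for A+T+ minus A+Tw. Arsi and Cdh2 lie on the same side of 0 in both comparisons with intervals that leave out 0, whereas Gm5641 is at 1.35 in one and at -0.49 in the other.

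**Figure D4:**
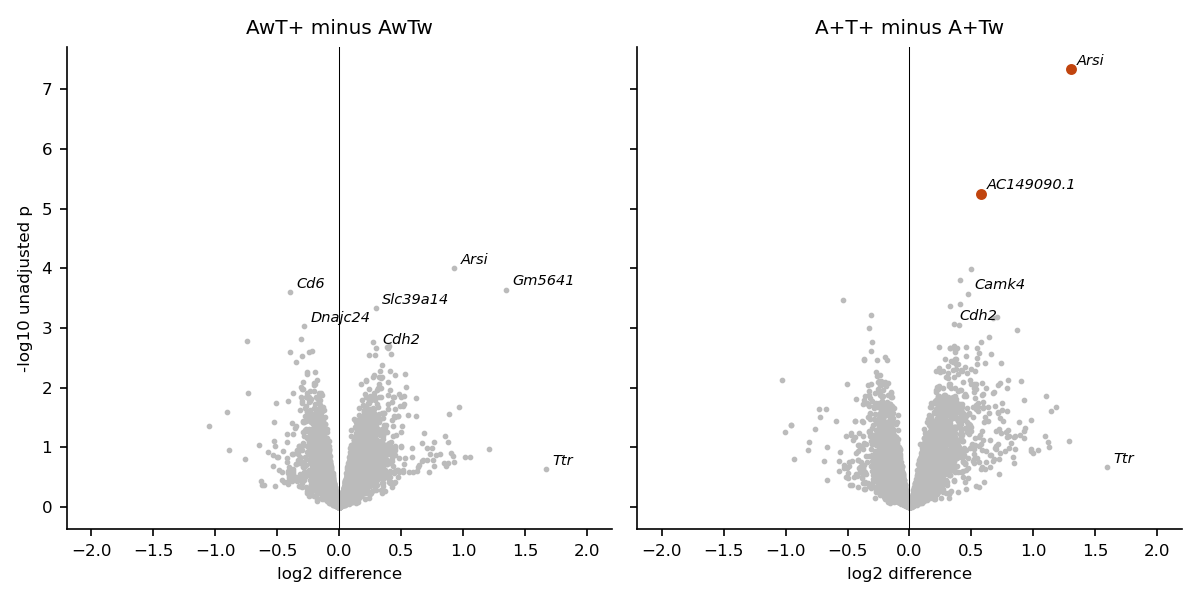
Log2 difference (x axis) against -log10 of the unadjusted p (y axis) for 15897 genes in AwT+ minus AwTw (left) and A+T+ minus A+Tw (right), with large points for genes past an adjusted p of 0.05. The left panel has 0 such genes and the right panel 2, Arsi and AC149090.1.

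Neither diet gave a gene past the threshold with limma on the deposited values. On STD 0 genes passed between AwT+ and AwTw mice (0%, 339 at an unadjusted p under 0.05), and on TWD 0 passed (0%, 502 unadjusted). The effect of tau on TWD minus that on STD passed for 0 genes (0%, 545 unadjusted), with limma in each case. With DESeq2 the paper compared the same genotypes within each diet at a false discovery rate under 0.05. It reported almost no genes, but more than 0 on each diet. The counts of 0 here therefore hold for this fit and these values. Of the leading genes, Slc39a14 differed by 0.19 on STD and 0.40 on TWD, Epb41l5 by 0.21 and 0.57, and Mcub by -0.41 and -0.18, and the smallest unadjusted p for a difference between the diets among the 20 was 0.0814, for Gm10548 (-0.19 on STD and -0.60 on TWD). With 6 mice in each group the median standard error was 0.148 on STD and 0.147 on TWD, and 0.208 for the difference between the diets, so a smaller part of the genes was bounded than with both diets together.

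The gene lists were described by counts, beside all genes, of which 8031 of 15897 were above 0 with a median of 0.0012. In each of the 26 lists 0 members passed the threshold, and the sign of the median turned in at least 1 alternative for 19 of them. The 19 include the choroid plexus list, which turned only with the covariate made from its own genes (-0.0069). A median near 0 was built in there. Among partners of tau, 7 of 21 microtubule-associated proteins and tubulins were above 0 with a median of -0.04, and this sign turned after quantile normalization (0.02). The tubulin Tuba4a ranged from 12.80 to 13.49 in AwT+ mice (median 12.93) and from 12.90 to 13.47 in AwTw mice (median 13.17), and differed by -0.17 ± 0.07 (SE, unadjusted p = 0.0282; -0.11 with weights on the mice, unadjusted p = 0.104, and -0.11 after quantile normalization). Map1a differed by -0.03 and Tubb4a by -0.05. Of the 35 kinases and phosphatases that act on tau, 16 were above 0 with a median of -0.02 and 0 had an unadjusted p under 0.05. Gsk3b differed by 0.09 (unadjusted p = 0.607), Cdk5 by -0.05 (unadjusted p = 0.627) and Fyn by -0.13 (unadjusted p = 0.0523).

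Among 35 chaperones 11 were above 0 with a median of -0.06, and the cochaperone Bag1 differed by -0.11 ± 0.05 (SE, unadjusted p = 0.0411; -0.21 in batch 0 alone and -0.059 in batch 1 alone, with unadjusted p of 0.0619 and 0.325), whereas the abundant Hspa8 differed by -0.08 (unadjusted p = 0.262). Of 29 genes of the unfolded protein response 11 were above 0 with a median of -0.05. Ern1, the stress sensor IRE1, ranged from 6.93 to 7.79 in AwT+ mice (median 7.46) and from 6.86 to 7.59 in AwTw mice (median 7.21). The Ern1 groups overlapped, with a difference of 0.20 ± 0.08 (SE, unadjusted p = 0.0253) and of 0.25 in A+T+ mice (unadjusted p = 0.0157). In AwT+ mice the Ern1 difference was 0.32 in batch 0 alone (limma, unadjusted p = 0.0518) and 0.15 in batch 1 alone (unadjusted p = 0.184). After quantile normalization it was 0.17 (unadjusted p = 0.0542). Hspa5, the main chaperone of the endoplasmic reticulum, differed by -0.06 (unadjusted p = 0.574). Of 36 genes of autophagy and lysosome 16 were above 0 with a median of -0.0067, and Sqstm1, the autophagy receptor p62, differed by -0.07 (unadjusted p = 0.475).

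Of the glial lists 0 members passed the threshold. Of 27 genes of disease-associated microglia 8 were above 0 with a median of -0.03. Trem2 differed by -0.10 (unadjusted p = 0.434), Cst7 by -0.0073, Clec7a by -0.07 and Apoe, which ranged from 14.75 to 15.58 in AwT+ and from 14.57 to 15.99 in AwTw mice, by -0.14 (unadjusted p = 0.245). Igf1, a growth factor of this list, ranged from 5.42 to 6.28 in AwT+ (median 5.86) and from 5.67 to 6.57 in AwTw mice (median 6.10), with a difference of -0.26 ± 0.10 (SE, unadjusted p = 0.0122). Of 15 genes of homeostatic microglia 4 were above 0 with a median of -0.10, among them Cx3cr1 at -0.10 and P2ry12 at 0.03, and 0 had an unadjusted p under 0.05. Gfap, the filament protein of reactive astrocytes, ranged from 12.45 to 13.12 in AwT+ and from 12.51 to 13.18 in AwTw mice and differed by 0.03 ± 0.07 (unadjusted p = 0.681). The list of reactive astrocytes had 7 of 21 above 0 with a median of -0.02, that of resting astrocytes 8 of 15 with 0.02, and that of complement and interferon genes 10 of 29 with -0.04, and 0 genes of these 3 lists had an unadjusted p under 0.05.

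In neurons, the list of interneuron markers and neuropeptides had 3 of 22 above 0, with a median of -0.11, and 3 members (Bdnf, Scg2 and Nptx2) were lower at an unadjusted p under 0.05, beside 0.887% of all genes. The members had been put together with earlier results of these data known, and no test of the list was made. Bdnf is also a member of the immediate early list, and none of these 3 genes is particular to interneurons. Their count is therefore not a result about interneurons. Scg2, a granin of dense-core vesicles, ranged from 11.52 to 11.99 in AwT+ (median 11.65) and from 11.41 to 12.15 in AwTw mice (median 11.84), with a difference of -0.15 ± 0.06 (SE, unadjusted p = 0.0162). Nptx2, an activity-dependent pentraxin of excitatory synapses onto interneurons, ranged from 8.44 to 8.93 (median 8.56) against 8.43 to 9.20 (median 8.87), with a difference of -0.21 ± 0.08 (SE, unadjusted p = 0.0217). Scg2 differed by -0.24 within batch 0 and by -0.10 within batch 1 (unadjusted p = 0.192) and by -0.099 after quantile normalization. Nptx2 differed by -0.12 within batch 0 (unadjusted p = 0.34) and by -0.11 with weights on the mice (unadjusted p = 0.158). The peptide genes Npy and Sst differed by -0.22 (unadjusted p = 0.0778) and -0.14 (unadjusted p = 0.226), and Reln, a glycoprotein secreted by interneurons, by 0.11. The median of the list was -0.12 within batch 0, -0.09 within batch 1 and -0.05 with weights on the mice. A+T+ against A+Tw mice gave a median of -0.10.

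Of 37 genes of the excitatory synapse 15 were above 0 with a median of -0.02, of 35 genes of presynaptic release 15 with -0.01, and of 19 genes of the inhibitory synapse 10 with 0.02. The median of the inhibitory list was -0.11 on STD, 0.11 on TWD and -0.10 with weights on the mice. The scaffold gene Dlg4 had the lowest value of the excitatory list, at -0.15 (unadjusted p = 0.137). Of 32 immediate early genes 13 were above 0 with a median of -0.02. Fos and Arc, both induced by neuronal firing, differed by 0.05 (unadjusted p = 0.804) and -0.07 (unadjusted p = 0.701), and on STD they were at 0.29 and 0.19 against -0.20 and -0.33 on TWD. Bdnf was the 1 member of this list with an unadjusted p under 0.05.

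For the labelled tissue, markers of hippocampal principal neurons were looked at. All 28 were in the table, with a mean value per mouse between 9.48 and 9.78 in the 24 mice. Markers of neighbouring regions, 17 of 21 in the table, lay between 7.41 and 7.86, and the list had 10 of 17 above 0 with a median of 0.06. The lists hold different genes and no reference tissue was measured, so these levels cannot show that neighbouring tissue was absent. Of the 28 hippocampal markers 9 were above 0 with a median of -0.04. Neurod6, a transcription factor of pyramidal neurons, ranged from 10.73 to 11.37 in AwT+ (median 11.18) and from 10.89 to 11.66 in AwTw mice (median 11.40), and differed by -0.24 ± 0.09 (SE, unadjusted p = 0.0113) and by -0.08 in A+T+ mice.

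Choroid plexus genes had the highest median of the lists, and their level differed from mouse to mouse in both genotypes. All 20 members were above 0, with a median of 0.80 (0.52 in batch 0 alone and 0.85 in batch 1 alone). Of these, 1 member, the prolactin receptor gene Prlr, had an unadjusted p under 0.05 (difference 0.97, limma, unadjusted p = 0.0213). The Prlr difference was 0.57 in batch 0 alone (unadjusted p = 0.201) and 0.44 with the choroid plexus covariate. Prlr is 1 of the genes that make up that covariate, so a smaller difference there was built in. Ttr, the transthyretin gene that marks this epithelium, ranged from 7.49 to 16.97 in AwT+ mice (median 15.94) and from 8.85 to 18.08 in AwTw mice (median 10.13), and its difference of 1.67 had an unadjusted p of 0.228. The mean of the 20 genes was above 8 in 7 AwT+ and 4 AwTw mice, with a range of 5.87 to 10.01 and of 6.17 to 9.46, so the groups overlapped over nearly their whole range. Over the 24 mice this mean correlated with Camk2a (Pearson r = -0.591) and Mapt (r = -0.574) and hardly with Arsi (r = -0.0287). Its part in the differences of single genes was not tested beyond a fit with this level as a covariate, in which 0 genes passed (437 at an unadjusted p under 0.05). Enpp2, which is shared with the oligodendrocyte list, differed by 0.91 and is the high member there.

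The lists of other cells and of housekeeping genes follow. Of 22 genes of myelin and oligodendrocytes 15 were above 0 with a median of 0.05, of 24 endothelial and mural genes 10 with -0.02, and of 12 meningeal and fibroblast genes 7 with 0.04. The 5 blood genes in the table had a median of 0.35, which was -0.28 in batch 0 alone, and the haemoglobin genes Hba-a1 and Hbb-bs differed by 0.90 and 0.80 on STD and by -0.32 and -0.08 on TWD. Of 43 ribosomal protein genes 2 were above 0 with a median of -0.10, and of 42 nuclear respiratory chain genes 4 were above 0 with a median of -0.05. With weights on the mice both signs turned, to 0.02 and 0.02, so no direction is given for either list, and Ndufa10 (-0.18, unadjusted p = 0.0276) was the 1 member of the 2 lists with an unadjusted p under 0.05, at -0.32 within batch 0 and -0.094 within batch 1 (unadjusted p = 0.309). Of 19 clock genes 13 were above 0 with a median of 0.04.

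**Figure D5:**
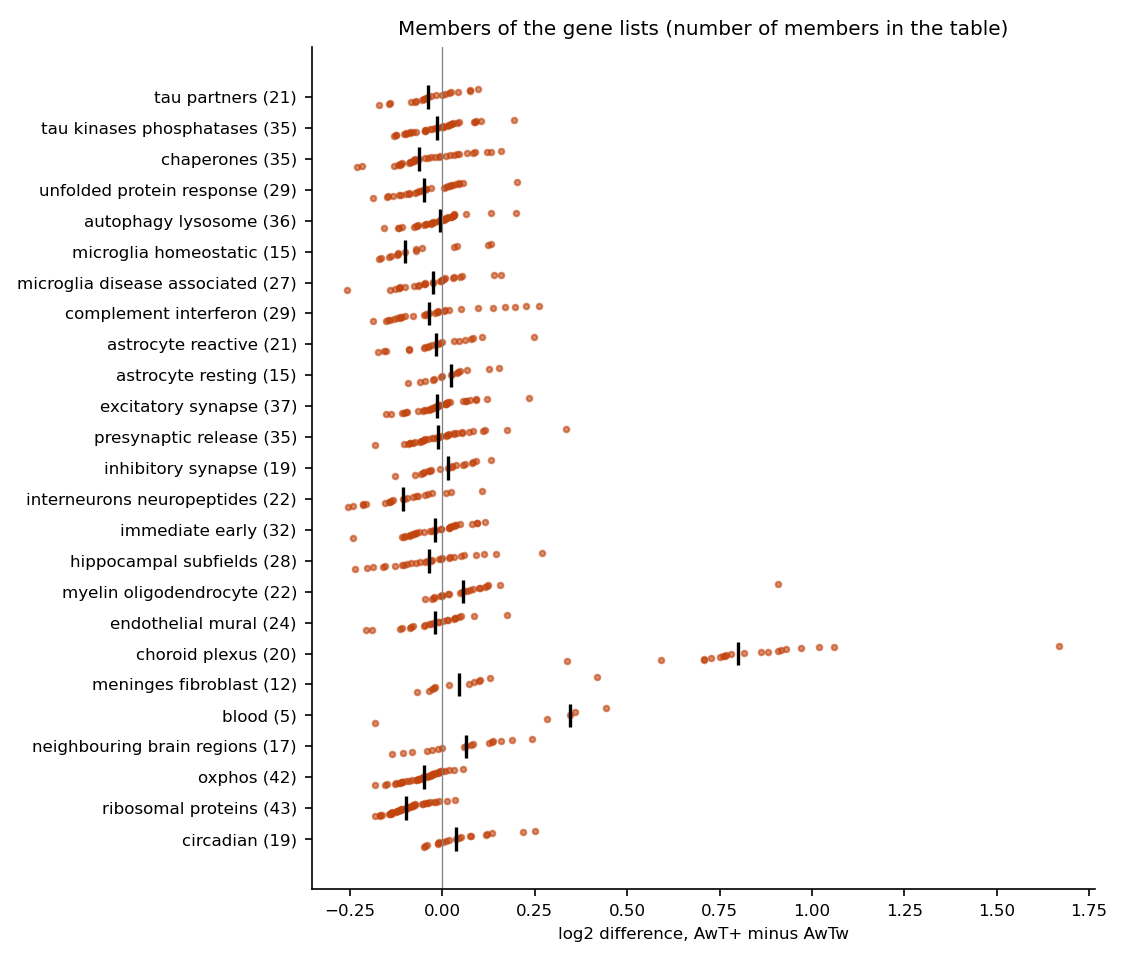
Log2 differences of AwT+ minus AwTw (x axis) for the members of 25 gene lists (y axis, number of members in the table in parentheses), 1 point per gene, with a black bar for the median. The 20 choroid plexus genes lie between 0.34 and 1.67.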

How the data were processed

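The series holds 1 table of hippocampal polyA RNA sequencing for 45 mice, each a separate animal. The authors used Trimmomatic 0.38 for trimming, discarded reads of rRNA and mitochondria by Bowtie2 2.2.3 alignment, quantified transcripts with kallisto 0.44.0 and summed them per gene with tximport. The deposited values are log2-like values that the authors made by variance-stabilizing transformation in DESeq2 1.22.2 after removing genes of low mean count, and from which they removed batch with limma 3.38.3. Counts were not used here, so depth per mouse is unknown and precision rests on the spread between mice.

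Genotype, diet and batch came from the sample labels. AwT+ and AwTw mice (5 and 4 in batch 0, 7 and 8 in batch 1) were fitted with limma 3.58.1 in R 4.3.3, with genotype, diet and batch as terms and empirical Bayes with a mean trend. Tests were two-sided, with Benjamini-Hochberg adjustment across the 15897 genes. Values within a diet came from a fit of the 4 groups, and values in A+ mice from a fit of all 45 mice. Gene symbols and positions came from GENCODE M21, with a symbol for 15707 genes, and 157 genes had the exact values of an earlier gene. Alternatives changed the covariates, the batches used, the weights, the normalization, the filter on low values and the mice. The genes named are those of the transgenes and their promoters, the 10 with the smallest unadjusted p in each direction, members of each list with an unadjusted p under 0.05 or the highest level, genes past the threshold in a companion comparison, and others said to be named after their values were seen or given as single members of a list. A gene that the rule names is not reported here. The comparison, its alternatives and the 26 gene lists were chosen with earlier results of these data known. Plots were drawn with matplotlib in Python.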

Additional observations from a re-analysis of the deposited data

Results flagged for a closer look

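Single mice stood far from the other 5 of their group in 2 of 100 groups examined (25 genes in 4 groups of 6 mice), by Dixon's criterion, which chance passes in about 1 of 20. Cdh2 was 10.44 in a TWD-fed AwT+ mouse, against 10.86 in the next lowest. Epb41l5 was 5.74 in a TWD-fed AwTw mouse, against 6.43 in the next lowest. Both animals are among the 3 of 24 mice whose values correlated least with the other mice, and without these 3 mice the Cdh2 difference was 0.29 (unadjusted p = 0.000292) and the Epb41l5 difference was 0.26 (unadjusted p = 0.00686), against 0.39 with them.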

How the results depend on the processing

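The count of genes past the threshold between AwT+ and AwTw mice was 0 in each alternative run on these 24 mice, in the fit of all 45 mice and with each mouse left out (0 to 0), and likewise 0 on STD, on TWD, for the difference between diets and for the difference between backgrounds. Over both backgrounds the tau effect passed for 2 genes. In A+T+ against A+Tw mice the count was 0 in batch 0 alone, 0 in batch 1 alone, 1 without the mean trend and 4 with weights on the mice. It was 2 without the batch covariate and 2 with only the A+ mice in the fit. With each mouse left out it was 1 to 2, and AC149090.1 was lost in 30 of 45 fits. Of the 35 genes given alternatives 3 changed sign, and of the 26 list medians 19 did, among them the inhibitory synapse (-0.101 with weights) and the meninges (-0.147 with the choroid plexus covariate). The choroid plexus list is counted among the 19 only through the covariate made from its own genes. App was 0.0129 in batch 0 alone, 0.0329 with weights, 0.037 after quantile normalization, 0.0193 without the 3 mice of lowest correlation and between -0.0397 and 0.00641 with each mouse left out. Camk2a was 0.0404 after quantile normalization and 0.00174 with the choroid plexus covariate, and Prnp was 0.00365 after quantile normalization. The causes were not tested. Blood genes (median -0.283) and markers of neighbouring regions (median -0.0251) moved in batch 0 alone. No paired analysis was possible because the labels give the mice no shared numbers. The depth of each mouse is unknown beyond the minimum that the paper states. Genes low on the scale, such as Cd6, Trac and Arsi, have their differences compressed by the transformation.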
